A study of Mus musculus with 2 samples.

Results

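The cells described here are Chil3 and Vcan positive leukocytes of mouse skin, 453 of the 12558 cells kept from 1 pool. They were chosen by their raw counts of unique molecular identifiers (UMIs, each standing for 1 captured transcript): at least 3 UMIs of Chil3, at least 1 of Vcan, fewer than 20 of S100a8 and S100a9 together, at most 4 of C1qa, C1qb and C1qc together, and none of Cd3e, Cd207 and Ccr7. Of the 453 cells, 67 came from control skin and 386 from skin after DPCP. Every value of the genes in this rule is a description of the choice.

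CD45+ cells, which are leukocytes, were sorted from enzymatically digested full-thickness skin and profiled by droplet sequencing of transcript 3′ ends. Control skin is labelled day 0, and the other skin is labelled day 2 of DPCP (diphenylcyclopropenone), a hapten painted on skin to set off an allergic contact reaction. Cells of each condition carried their own oligonucleotide tag. Strain, sex, age, the sensitization scheme and the number of mice behind a tag are not given in the sources used here. With 1 tagged sample per condition there are no replicates, so no test was possible, and all intervals are 95% intervals for counting error alone.

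Classical monocytes leave the bone marrow through Ccr2, circulate with high Ly6C on their surface and enter inflamed skin, where they can become macrophages or dendritic-like cells. Chil3 encodes a secreted chitinase-like lectin of myeloid cells, and Vcan encodes versican, a large proteoglycan of the extracellular matrix made by classical monocytes. Interferons, interleukin-1 and bacterial products each switch on known gene programmes in these cells.

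The pool held 54397154 UMIs in 6280 control barcodes and 53748585 UMIs in 7866 DPCP barcodes. After filtering, 4970 control and 7588 DPCP cells remained. No barcode sequence was shared between the conditions. The tag assigned to a member made up a median of 95.9% of its tag UMIs in control and 84.6% in DPCP, and 266 of 386 DPCP members reached 80% own tag. Members held a median of 9198 UMIs in control and 11791 in DPCP, and 689539 and 4754848 UMIs in all. The mitochondrial share had a median of 1.79% and 2.46%.

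Members made up 1.35% (1.05 to 1.71%) of kept control cells and 5.09% (4.603 to 5.61%) of kept DPCP cells. Neutrophils were taken as cells with at least 20 S100a8 and S100a9 UMIs, a Csf3r UMI, at most 4 C1q UMIs and no Cd3e or Cd207 UMI. They numbered 112 in control and 4136 in DPCP and so set much of the DPCP denominator. Among cells with fewer than 20 S100a8 and S100a9 UMIs, members were 1.39% (1.08 to 1.76%) in control and 14.9% (13.6 to 16.4%) in DPCP. The Vcan criterion weighed on this difference. Cells that met every other criterion but had no Vcan UMI numbered 161 in control and 87 in DPCP. Without the Vcan criterion, the share was 4.59% (4.02 to 5.21%) in control and 6.23% (5.70 to 6.80%) in DPCP. Members were thus 29.4% of the Chil3 positive cells of control and 81.6% of those of DPCP.

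Within the chosen cells, Chil3 ranged from 3 to 139 UMIs per cell in control, with a median of 14, and from 3 to 138 in DPCP, with a median of 21. Vcan had a median of 2 UMIs in control, with a highest value of 31, and a median of 7 in DPCP, with a highest value of 119. At the edge of the rule, cells with exactly 3 Chil3 UMIs (9 control, 21 DPCP) had a Plac8 level of 1833 and 1867 CPM (a gene's UMIs per 1000000 UMIs of the summed cells). Cells just outside, with 2 Chil3 UMIs (5 and 17), had 1123 and 2553 CPM. Plac8 encodes a small cysteine-rich protein of myeloid cells, and it stood on both sides of the limit.

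The label of monocyte was checked against genes that the rule did not use. Plac8 stood at 3073 CPM in control members and 2967 CPM in DPCP members. In T cells, taken as cells with at least 2 Cd3e UMIs, it was 133 and 434 CPM. T cell levels are used throughout as a comparison for free RNA. They can also hold transcripts that T cells make themselves, and the sources cannot be told apart. Ms4a6c, a membrane protein of the monocyte lineage, was at 1452 and 1179 CPM in members against 113 and 205 CPM in T cells. Ccr2, the chemokine receptor for marrow exit, was at 1866 and 1618 CPM against 615 and 393 CPM. All 3 genes stood above the T cell level in both conditions. The T cell gate is not free of the markers, since 16 of its 229 DPCP cells (6.99%) and 2 of its 251 control cells had at least 3 Chil3 and 1 Vcan UMI, though its median Chil3 count was 0 in both conditions.

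Markers of macrophages and of nonclassical monocytes, both described further on, were present in the members. The macrophage list, whose C1q genes the rule limits, summed to 3375 and 2829 CPM, against 900 and 780 CPM in T cells. The nonclassical list summed to 2055 and 1400 CPM, against 831 and 894 CPM. For 13 other cell types, most markers were at or near 0. The summed level of 4 keratinocyte markers, all without a UMI in control, was 2.10 CPM in DPCP, and the sum of 4 fibroblast markers was 2.90 and 0.841 CPM. The sums were 13.1 and 5.68 CPM for 4 B cell markers, and at most 4.35 and 5.05 CPM for the lists of mast cells and basophils, eosinophils, Langerhans cells, type 1 and mature dendritic cells. Of these lists, the rule itself sets Cd207 of Langerhans cells and Ccr7 of mature dendritic cells to 0. Natural killer cell markers summed to 116 CPM in control, where 1 cell held all the Gzma UMIs, and to 5.47 CPM in DPCP. Sums for plasmacytoid dendritic cells (187 and 247 CPM) and endothelium (20.3 and 12.6 CPM) lay near those of T cells (129 and 169 CPM, and 25.8 and 44.2 CPM). The 7 T cell markers summed to 34.8 and 26.1 CPM in members, against 4434 and 3465 CPM in T cells. They include Cd3e, which the rule excludes and the T cell gate requires, so part of this contrast was set in advance. The 15 neutrophil markers summed to 798 and 1167 CPM, beside 89510 CPM in DPCP neutrophils. They include S100a8, S100a9 and Csf3r, by which the cells were chosen, so part of this contrast was set in advance too. S100a8 and S100a9 together were a median of 0.0514% of a member's UMIs in control and 0.0596% in DPCP, and 0.0501% and 0.0614% of a T cell's UMIs. Both shares are limited by the same criterion of fewer than 20 such UMIs. Their closeness therefore cannot show whether members hold neutrophil RNA.

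**Figure D1:**
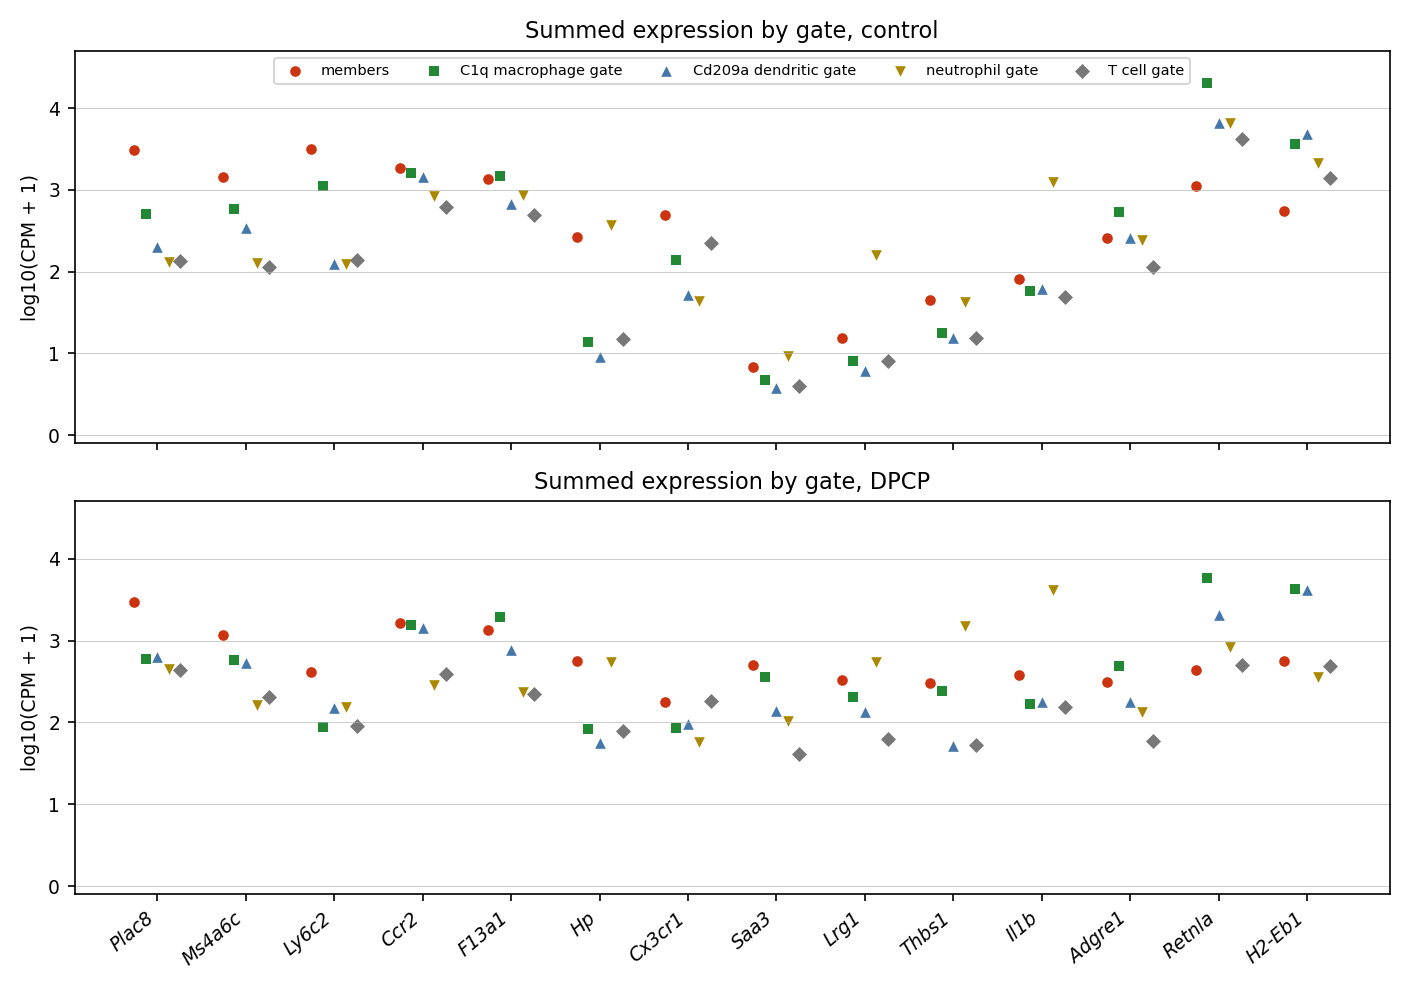
Level of 14 genes in the members and in 4 comparison gates, as log10(CPM + 1), in control (top) and DPCP (bottom), with 1 point per gate from summed UMIs. In both conditions the members have the highest Plac8 and Ms4a6c of the 5 gates, and Saa3 and Lrg1 are low in control members (5.80 and 14.5 CPM) and high in DPCP members (497 and 332 CPM).

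Of all genes, 6643 reached 50 UMIs over all members, with 20 CPM or more where they were higher. A gene was called higher or lower in DPCP when its CPM ratio reached 2-fold and the ratio's interval excluded 1. By this rule 301 genes were higher (4.53%) and 243 were lower (3.66%). The level in the condition where the gene was high was at least 2-fold above that in T cells of that condition for 117 of the higher and 101 of the lower genes. For the gene lists a ratio of 1.5 was used, which 8.37% of 8091 genes with 50 UMIs passed upward and 7.81% downward, and the median log2 ratio of those genes was 0.00899.

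Of 12 monocyte markers outside the rule, 2 were higher in DPCP, 2 were lower and 8 passed neither limit, with a median log2 ratio of -0.11. F13a1, the A subunit of coagulation factor XIII, was at 1344 CPM against 1336 CPM in DPCP (ratio 0.994, 0.927 to 1.07). Csf1r, the receptor for colony-stimulating factor 1, was at 513 and 473 CPM (0.921, 0.823 to 1.03). Fn1, fibronectin, was at 1304 and 1146 CPM, with 1511 and 401 CPM in T cells, and Ifitm6, of the interferon-induced transmembrane family, at 423 and 396 CPM. The 2 markers called higher were Hp, the hemoglobin-binding plasma protein haptoglobin, from 265 to 560 CPM (2.11, 1.82 to 2.47), and Cd14, the co-receptor for lipopolysaccharide, from 59.5 to 133 CPM (2.24, 1.63 to 3.15). Cd14 was at 1788 CPM in DPCP neutrophils and 65.7 CPM in DPCP T cells.

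Ly6c2 (ENSMUSG00000022584), which encodes the Ly6C antigen by which classical monocytes are sorted, was lower in DPCP. Its level was 3124 CPM in control members against 413 CPM in DPCP members, a ratio of 0.132 (0.124 to 0.141). T cells had 137 and 90.6 CPM of Ly6c2, and its near copy Ly6c1, with which reads can be shared, was at 2.90 and 0.421 CPM in members. Per cell, Ly6c2 had a median of 14.4 UMIs per 10000 in control and 2.37 in DPCP, and the highest values were 164 and 51.2, so the cells of the conditions overlapped. With every cell thinned to 1000 UMIs, 68.7% (56.2 to 79.4%) of control and 28.8% (24.3 to 33.6%) of DPCP members had a Ly6c2 UMI, against 89.6% and 76.9% unthinned. In T cells the thinned shares were 2.79% and 3.06%, at median depths of 8637 and 8178 UMIs. The gene lies at chr15:75108158-75111970 on the minus strand of mm10. Ms4a4c, of the same membrane protein family as Ms4a6c, was at 670 and 355 CPM (0.530, 0.477 to 0.588).

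**Figure D2:**
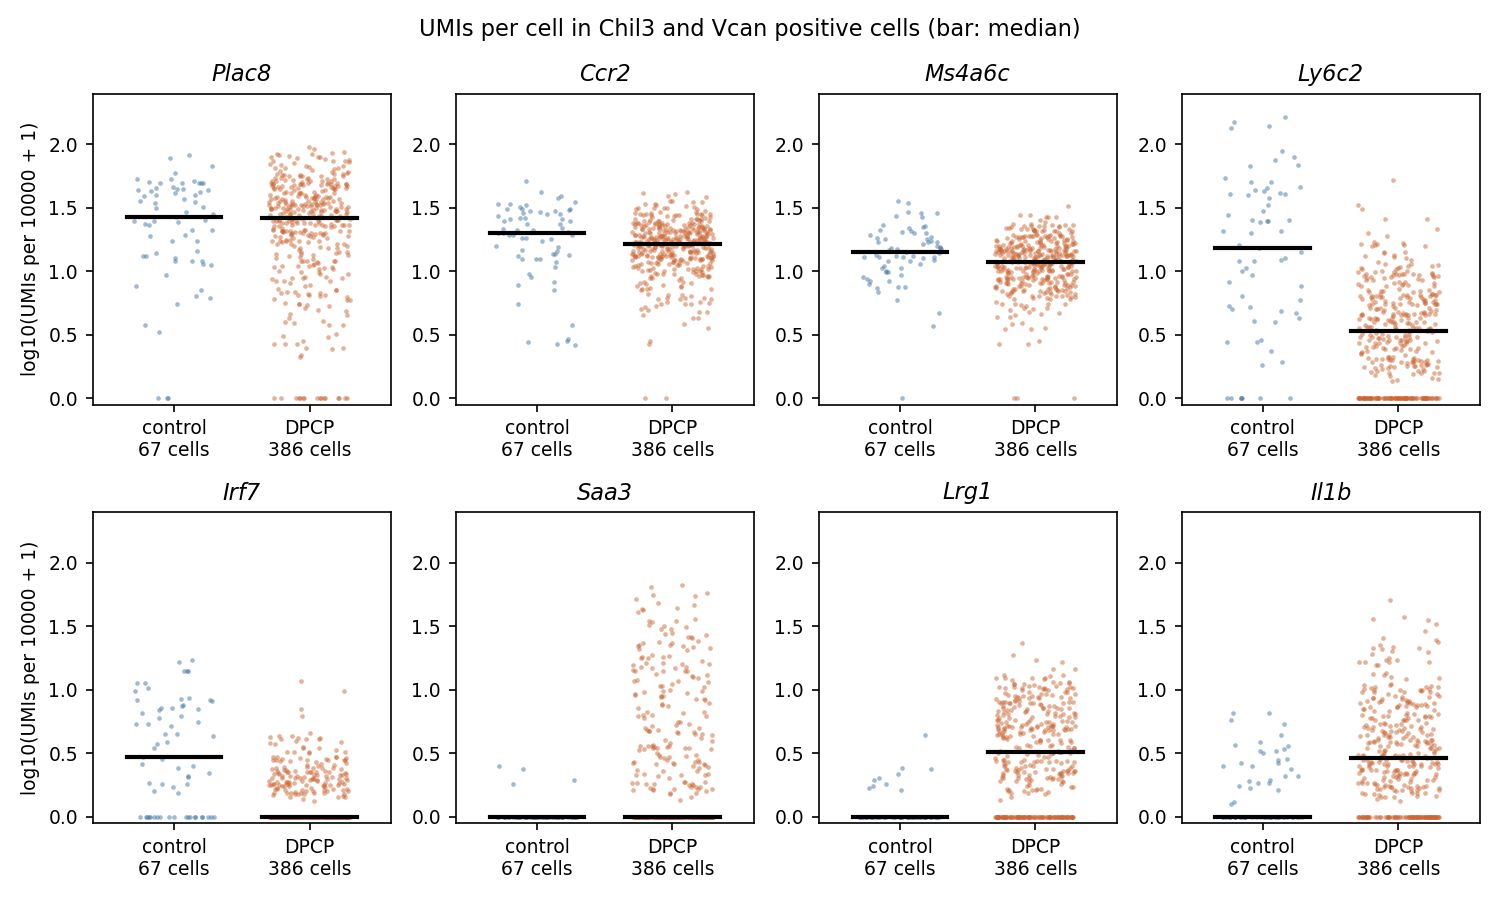
Each point is 1 member, with its UMIs per 10000 as log10(value + 1), for 67 control and 386 DPCP cells, and the bar is the median. Plac8, Ccr2 and Ms4a6c overlap widely, the Ly6c2 and Irf7 medians are lower in DPCP, and Saa3, Lrg1 and Il1b reach levels in DPCP that no control member had.

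All 19 type I interferon genes with at least 50 UMIs were lower in DPCP members, with a median log2 ratio of -1.57 and a range from -5.67 to -0.67, and each was at least 2-fold above the T cell level in control. Of the 2 other symbols, Ifit3b had 18 and 2 UMIs and Mx1 had no match. Ifi44, an interferon-induced protein, was at 107 CPM and 2.10 CPM (ratio 0.0196, 0.00903 to 0.0381), with UMIs in 22 of 67 control and 4 of 386 DPCP cells. The Ifit proteins bind foreign RNA: Ifit2 was at 85.6 and 7.57 CPM (0.0885, 0.0568 to 0.136) and Ifit3, which has the near copy Ifit3b, at 76.9 and 7.57 CPM. Rsad2, the antiviral enzyme viperin, was at 107 and 11.1 CPM (0.104, 0.0716 to 0.150). Irf7, a transcription factor that amplifies interferon production, was at 409 and 56.2 CPM. Of 67 control cells 47 held an Irf7 UMI, against 156 of 386 DPCP cells. The smallest differences of the list were those of the DNA sensor family genes Ifi204, at 460 and 272 CPM, and Ifi209, at 344 and 216 CPM.

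Promoters of the interferon list are shown because so many of its members were lower together. The list was picked as interferon-response genes, so its share of promoters with a motif says nothing about the difference between conditions. The window of each RefSeq start (GRCm38.p6, 250 bases before to 50 after) was searched for the interferon-stimulated response element on both strands, written as GAAA, any 2 bases and GAAA, or in reverse as TTTC, any 2 bases and TTTC. It was found in 7 of 17 windows of the interferon list (41.2%) and in 1131 of 32851 windows of all genes (3.44%). The antimicrobial list, described further on, had it in 4 of 13 windows (30.8%), and the monocyte markers in 0 of 12. The gamma-activated sequence, written as TTC, any 3 bases and GAA, can share letters with it and reads the same on both strands. It was in 1 of 17 windows of the interferon list, 2 of 13 antimicrobial windows and 2 of 12 windows of monocyte markers. Among all genes it was in 2726 of 32851 windows (8.30%). Windows follow for Isg15 (chr4:156200769-156201068, minus strand), a ubiquitin-like modifier at 162 and 65.6 CPM, for Ifit1 (chr19:34640639-34640938, plus strand) at 68.2 and 9.46 CPM, for Rsad2 (chr12:26456403-26456702, minus strand) and for Saa3 (chr7:46715627-46715926, minus strand), which was higher in DPCP. Capitals mark the matches to the interferon-stimulated response element.
Isg15: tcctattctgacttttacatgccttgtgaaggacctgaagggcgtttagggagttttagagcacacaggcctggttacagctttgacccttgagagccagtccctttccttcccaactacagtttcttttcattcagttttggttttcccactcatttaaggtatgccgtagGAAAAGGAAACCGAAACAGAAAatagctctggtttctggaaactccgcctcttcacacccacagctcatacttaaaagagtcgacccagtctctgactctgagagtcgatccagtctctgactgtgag
Ifit1: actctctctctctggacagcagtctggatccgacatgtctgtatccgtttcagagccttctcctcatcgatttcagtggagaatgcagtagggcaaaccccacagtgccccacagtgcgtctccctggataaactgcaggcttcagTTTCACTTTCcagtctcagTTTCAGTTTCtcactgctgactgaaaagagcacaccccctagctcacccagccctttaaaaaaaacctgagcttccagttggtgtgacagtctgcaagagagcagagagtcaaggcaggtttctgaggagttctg
Rsad2: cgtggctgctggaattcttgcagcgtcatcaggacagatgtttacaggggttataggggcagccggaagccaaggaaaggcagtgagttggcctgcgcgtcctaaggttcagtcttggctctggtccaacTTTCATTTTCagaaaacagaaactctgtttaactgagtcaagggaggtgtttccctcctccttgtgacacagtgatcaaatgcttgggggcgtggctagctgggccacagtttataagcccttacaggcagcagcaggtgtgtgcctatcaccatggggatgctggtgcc
Saa3: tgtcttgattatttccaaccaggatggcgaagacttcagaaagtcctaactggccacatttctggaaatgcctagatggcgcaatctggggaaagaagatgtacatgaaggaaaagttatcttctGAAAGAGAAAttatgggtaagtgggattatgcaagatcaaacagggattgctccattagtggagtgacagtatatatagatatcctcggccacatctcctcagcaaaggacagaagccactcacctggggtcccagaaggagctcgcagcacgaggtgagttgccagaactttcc
In Isg15 the 3 matches overlap one another and begin 78, 72 and 66 bases before the start. A match in letters is present in the Saa3 window as well as in those of the interferon genes, and it was not tested for any function.

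Of 14 measured genes of the interferon-gamma list 1 was higher and 4 were lower, with a median log2 ratio of -0.26. Irgm1, a GTPase of cell-autonomous defence, was at 128 and 49.2 CPM (0.386, 0.301 to 0.499). Cxcl9, a chemokine for T cells, had 0 UMIs in control and 141 in DPCP, at least 6.82-fold higher, but these lay in 5 of 386 cells. Class I genes of the Q region were among the lowest ratios, with H2-Q7 at 160 and 14.3 CPM (0.0896, 0.0653 to 0.122) and H2-Q6 at 53.7 and 4.63 CPM. These 2 genes are near copies between which reads may be split. T cells had 162 and 293 CPM of H2-Q7 and 94.9 and 162 CPM of H2-Q6, so in T cells both were higher in DPCP. Receptor genes stood at this end too: Siglec1, a sialic acid-binding receptor, was at 92.8 and 9.04 CPM (0.0974, 0.0646 to 0.146), and Axl, a receptor that clears dying cells, at 71.1 and 6.73 CPM (0.0947, 0.0587 to 0.151). Fcgr1, the high-affinity IgG receptor, was the only one of 6 Fc receptor genes past the limit, at 322 and 125 CPM (0.388, 0.332 to 0.455). Fcgr2b, Fcgr3 and Fcgr4 had ratios of 1.38, 1.20 and 0.841.

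Of 17 measured acute-phase and antimicrobial genes 9 were higher and 1 was lower in DPCP, with a median log2 ratio of 1.08, while their summed level was 18259 CPM in control and 14716 CPM in DPCP. Saa3, a serum amyloid A protein made by macrophages and epithelia, stood at 5.80 CPM in control (4 UMIs in 4 cells) against 497 CPM in DPCP (2364 UMIs in 191 cells), a ratio of 85.7 (33.4 to 315). In DPCP T cells it was at 39.9 CPM and in DPCP neutrophils at 104 CPM, below the members in each case. Thinned to 1000 UMIs, 0 of 67 control members (exact upper limit 5.36%) and 23.3% (19.2 to 27.9%) of DPCP members had a Saa3 UMI, against 0.398% and 2.18% of T cells. The unthinned shares were 5.97% and 49.5%. Its median over DPCP members was 0 UMIs per 10000 and its highest value 65.8, so about as many DPCP members lacked it as held it (195 of 386 without a UMI). The gene lies at chr7:46711998-46715700 on the minus strand of mm10.

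Lrg1, a secreted leucine-rich glycoprotein of the acute phase, was at 14.5 and 332 CPM (22.9, 12.4 to 47.8), with UMIs in 10 of 67 control and 288 of 386 DPCP cells. Its DPCP level was 61.0 CPM in T cells and 540 CPM in neutrophils. Clec4n, the fungal sensor Dectin-2, was at 4.35 and 49.6 CPM (11.4, 3.86 to 55.7), with 349 CPM in DPCP neutrophils and 20.2 CPM in DPCP T cells. The lower end of the list was Ncf1, a subunit of the NADPH oxidase, at 206 and 137 CPM (0.665, 0.554 to 0.803), and Cybb, its membrane subunit, at 1769 and 1223 CPM (0.691, 0.649 to 0.736).

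The other genes of the highest ratios were of mixed roles. F11r, the junctional adhesion molecule A, was at 4.35 and 111 CPM (25.5, 8.67 to 124), with 15.9 CPM in DPCP T cells and 28.9 CPM in DPCP neutrophils. Htr7, a serotonin receptor, was at 1.45 CPM (1 UMI) and 45.4 CPM (31.3, 5.56 to 1243). Igfbp6, which binds insulin-like growth factor II, was at 4.35 and 86.9 CPM (19.96, 6.78 to 97.2), against 131 CPM in neutrophils, on 3 control UMIs in 2 cells. Tarm1, an activating receptor of myeloid cells, was at 5.80 and 85.8 CPM (14.8, 5.73 to 54.5), against 129 CPM in neutrophils. Galm, Trem1, Gadd45a, Cd38, Ptgs2, Sdc4 and Uck2 completed the 14, with ratios between 10.7 and 17.1 on 1 to 5 control UMIs each. In DPCP T cells Sdc4 was at 64.8 CPM and Gadd45a at 37.8 CPM, above the members' 50.7 and 20.4 CPM.

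Of 9 measured inflammatory cytokine genes 4 were higher and none passed downward, with a median log2 ratio of 0.89. Il1b, interleukin-1 beta, was at 79.8 and 380 CPM (4.76, 3.64 to 6.35), with UMIs in 30 of 67 control and 300 of 386 DPCP cells. Neutrophils held 4123 CPM of Il1b in DPCP, T cells held 48.2 and 153 CPM, and the part of these levels in the difference was not tested. Thinned to 1000 UMIs, 5.97% of control and 30.3% of DPCP members had an Il1b UMI, against 9.16% and 10.9% of T cells. Ptgs2, the prostaglandin synthase COX-2, was at 4.35 and 54.1 CPM (12.4, 4.20 to 60.6), beside 589 CPM in neutrophils. Tnf and Il27 were at 14.5 and 9.67 CPM and at 16.0 and 13.2 CPM, with intervals that include 1.

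Of 10 NF-kappaB response genes 6 were higher, with a median log2 ratio of 0.83, and of 11 immediate early and stress genes 6 were higher, with a median of 0.70. Only 1 of the 10 and 4 of the 11 were at least 2-fold above the T cell level in the condition where they were higher. Among the genes higher in DPCP these were 1 and 3. Tnfaip3, the deubiquitinase A20 that dampens NF-kappaB, was at 8.70 and 30.9 CPM but at 168 CPM in DPCP T cells. Bcl3, a nuclear partner of NF-kappaB, was at 33.4 and 103 CPM (3.08, 2.03 to 4.90), and the subunit genes Rel and Relb had ratios of 0.930 and 0.960. Dusp1, a phosphatase that ends MAP kinase signals, was at 164 and 601 CPM (3.67, 3.04 to 4.47), against 214 CPM in DPCP T cells. Jun and Ier2 had ratios of 1.07 and 1.03. Of 9 pattern recognition genes 4 were higher, with a median log2 ratio of 0.55, among them Trem1, an amplifier of inflammatory signals in myeloid cells, at 1.45 and 24.6 CPM, and Cd14. Tlr7 and Ly96 had ratios of 0.816 and 0.769 with intervals that include 1.

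**Figure D3:**
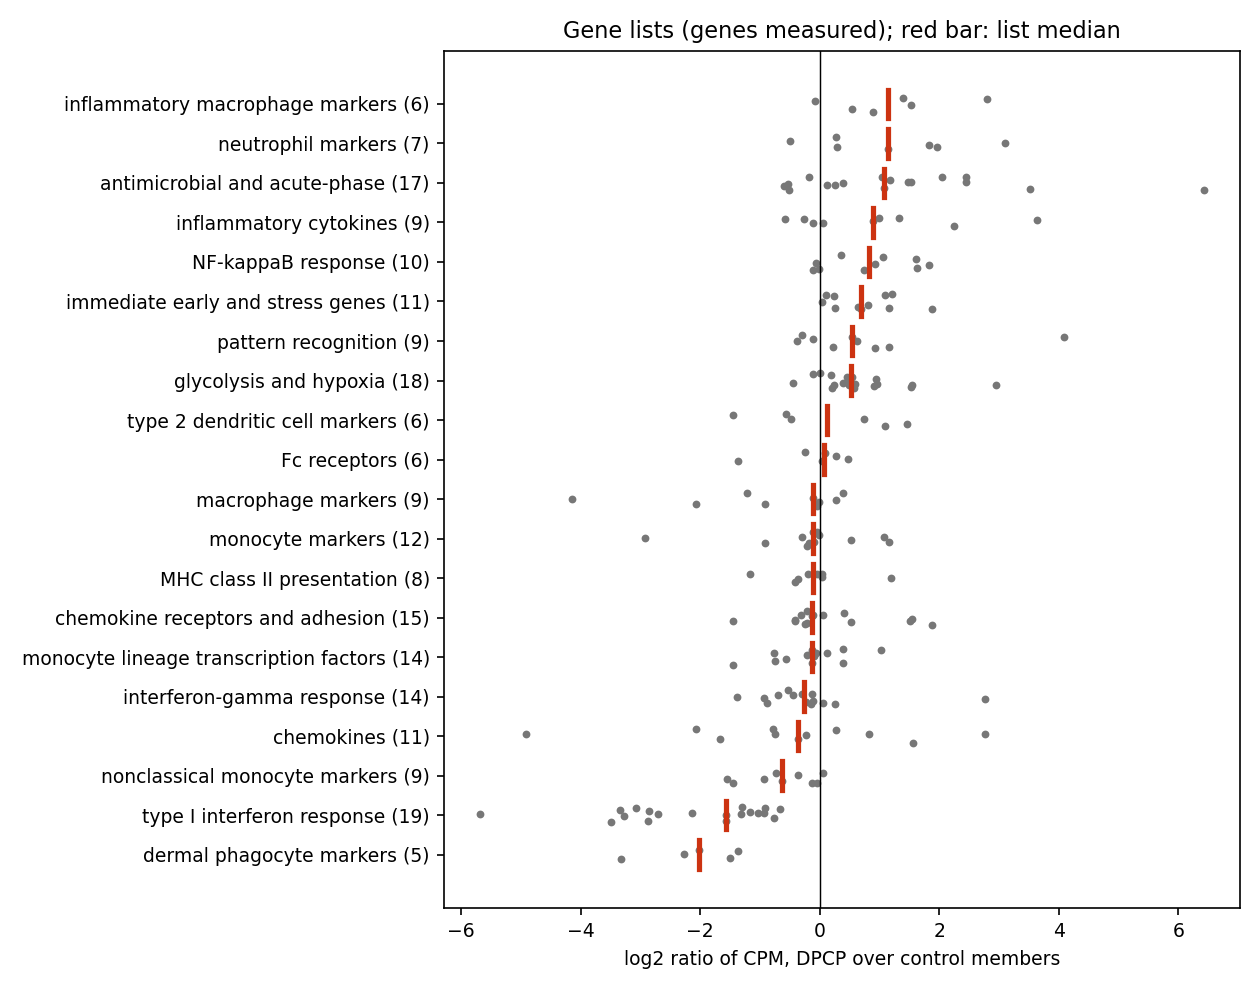
Each grey point is 1 gene of a list, placed at its log2 ratio of CPM between DPCP and control members, and the red bar is the list median, with the number of genes measured in parentheses. The type I interferon list lies wholly below 0 (median -1.57), and the antimicrobial list has a median of 1.08.

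Chemokine genes went both ways, 3 higher and 4 lower of 11, with a median log2 ratio of -0.36. Cxcl2, which draws neutrophils, was at 87.0 and 256 CPM (2.94, 2.27 to 3.88), beside 6290 CPM in neutrophils and 144 CPM in T cells of DPCP skin. Ccl2, the ligand of Ccr2, was lower at 85.6 and 26.9 CPM (0.315, 0.229 to 0.436), with 5.98 and 3.86 CPM in T cells. Ccl5, which draws T cells, was lower as well, at 126 and 4.21 CPM, but all 87 of its control UMIs came from 1 cell. That cell also held all 60 control UMIs of Gzma, a cytotoxic granule enzyme, and 51 of 55 of Kcnq5, and with 38338 UMIs it was the deepest control member. Pf4, platelet factor 4, and Folr2, a folate receptor of resident macrophages, were lower too, but 33 of 37 and 30 of 36 of their control UMIs came from 1 other cell. Without that cell the Pf4 ratio turned from 0.239 to 2.15 and that of Folr2 from 0.0564 to 0.330. Without the other cell no Ccl5 UMI was left in control. Ccnd1, cyclin D1, was at 52.2 and 2.94 CPM, with 14 of 36 control UMIs in 1 cell, a ratio of 0.0564 (0.0902 without that cell) and 72.5 CPM in control T cells.

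Among receptors for migration and adhesion, 3 of 15 were higher and 1 was lower. Ccr1, a receptor of inflammatory chemokines, was at 60.9 and 178 CPM (2.92, 2.14 to 4.09), and Cxcr4, the retention receptor of the marrow, at 20.3 and 74.9 CPM (3.69, 2.17 to 6.81). Cx3cr1, the fractalkine receptor, was at 486 and 178 CPM (0.366, 0.322 to 0.417), and the T cell levels were 221 and 180 CPM.

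Nonclassical monocytes, which patrol vessels, are marked by genes such as Cx3cr1 and Ace. Of 9 such markers 4 were lower and none was higher in DPCP members, with a median log2 ratio of -0.62. Ace, angiotensin-converting enzyme, was at 92.8 and 31.8 CPM (0.342, 0.254 to 0.466), whereas Itgal, an integrin subunit, was at 392 and 405 CPM, and Adgre4 at 219 and 213 CPM.

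Of 14 transcription factor genes of the lineage 1 was higher and 3 were lower. Cebpd, of the C/EBP family, was at 58.0 and 118 CPM (2.04, 1.48 to 2.88). Irf4 was at 36.3 and 13.2 CPM (0.365, 0.227 to 0.606), below the 52.3 and 49.8 CPM of T cells. Irf5, a factor of inflammatory cytokine genes, was at 294 and 173 CPM (0.587, 0.502 to 0.687).

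Glycolysis and hypoxia genes were higher for 5 of 18 and lower for none, with a median log2 ratio of 0.52. Only 1 of the 18 was at least 2-fold above the T cell level where it was higher, and it was not among the 5. Ndrg1, a stress gene that hypoxia induces, was at 29.0 and 84.97 CPM (2.93, 1.87 to 4.85), and Egln3, an oxygen-sensing hydroxylase, at 1.45 and 11.1 CPM on 1 control UMI and under the 30.9 CPM of T cells. Hk2 and Eno1, both enzymes of glycolysis, had ratios of 0.733 and 0.931. Of 14 cell cycle genes only Pcna had 50 UMIs, at 82.7 and 75.7 CPM, which was under the T cell level of 112 and 125 CPM.

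Among 3 measured growth factor genes Nrg1, a ligand of ErbB receptors, was higher, at 17.4 and 119 CPM (6.82, 3.87 to 13.3), with UMIs in 7 of 67 control and 137 of 386 DPCP cells and 25.3 CPM in DPCP T cells. Tgfb1 was level at 348 and 362 CPM (1.04, 0.908 to 1.20). Of 6 measured inflammatory macrophage markers 4 were higher, with a median log2 ratio of 1.15. Thbs1, the matrix glycoprotein thrombospondin-1, was at 43.5 and 303 CPM (6.97, 4.86 to 10.4), beside 1520 CPM in DPCP neutrophils and 51.5 CPM in DPCP T cells. Fabp5, a fatty acid carrier, was at 18.9 and 54.3 CPM, with 50.2 CPM in DPCP T cells. Lgals3 was at 1211 and 1143 CPM. Spp1, the gene in the title of the series, was at 31.9 and 84.1 CPM (2.64, 1.72 to 4.26) in members, and at 64.0 CPM in T cells and 2549 CPM in neutrophils of DPCP skin.

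Dermal phagocyte genes were lower in DPCP for 5 of 5, but none exceeded the T cell level by 2-fold. Lpl, lipoprotein lipase, was at 946 and 94.2 CPM in members, and at 995 and 96.2 CPM in T cells. Lyz1, a lysozyme, was at 526 and 110 CPM against 946 and 174 CPM, and its ratio was 0.208, or 0.314 without the control cell richest in it. Retnla, a secreted resistin-like protein, was at 1121 and 437 CPM against 4160 and 509 CPM, and without the control cell holding 487 of its 773 UMIs the log2 ratio of Retnla was 0.00517, from a ratio of 0.390 with it. With all control cells counted, Lpl, Lyz1 and Retnla were lower in DPCP in members and in T cells alike. For Retnla the difference in members rested on that 1 control cell. Of 9 macrophage markers outside the rule 4 were lower and none was higher, with a median log2 ratio of -0.10, and Apoe was at 1534 and 1428 CPM. Of 6 type 2 dendritic cell markers 2 were higher and 1 was lower, and Cd86, a co-stimulatory ligand, was at 60.9 and 130 CPM (a ratio of 2.14). Of 7 neutrophil genes measured outside the rule 3 were higher, among them Il1r2, the decoy receptor of interleukin-1, at 10.2 and 86.6 CPM, with 60.97 CPM in DPCP T cells.

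The same genes were read in the 161 control and 87 DPCP cells that met the rule except for Vcan, where 7.33% of 6194 genes passed the 1.5-fold limit upward and 10.6% downward. These are other cells of the same 2 tagged samples, so they share the lack of replicates. All 20 measured type I interferon genes were lower in DPCP, with a median log2 ratio of -2.29 beside -0.02 over all genes. Ly6c2 was at 3512 and 161 CPM (0.0458, 0.0384 to 0.0543). Saa3 was at 0.632 CPM (1 UMI) and 150 CPM, Lrg1 at 6.95 and 129 CPM (18.6, 9.98 to 38.3), and Il1b at 84.1 and 493 CPM (5.86, 4.81 to 7.18). Of 12 monocyte markers 6 were lower and 1 was higher in these cells, with a median log2 ratio of -0.55 beside -0.11 in the members. Fn1 was at 1094 and 316 CPM (0.289, 0.253 to 0.328), F13a1 at 909 and 341 CPM (0.375, 0.329 to 0.425) and Ccr2 at 1631 and 959 CPM (0.588, 0.543 to 0.636). Nonclassical markers had the opposite sign from those of the members, a difference that was not tested: 6 of 9 were higher and none was lower, with a median log2 ratio of 0.97, and Ace was at 123 and 302 CPM (2.46, 2.03 to 2.98). Over the members and these cells together, the nonclassical median was -0.38.

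The cells were next set beside C1q positive macrophages, with at least 5 C1q UMIs (648 control and 213 DPCP cells). Limits on S100a8 and S100a9, Cd3e, Cd207 and Ccr7 were those of the rule. Of these macrophages, 13 in control (2.01%) and 24 in DPCP (11.3%) also had at least 3 Chil3 and 1 Vcan UMI. In DPCP, 249 of 6797 genes (3.66%) were at least 2-fold higher in the members and 533 (7.84%) were lower. Highest among them were Bmx, a tyrosine kinase, at 28.4 against 1.61 CPM, with 87.8 CPM in neutrophils, and Flt3, a cytokine receptor of progenitors and dendritic cells, at 34.1 against 2.01 CPM, with 17.6 CPM in T cells. Mgst1, a glutathione transferase, was at 200.4 against 21.8 CPM (a ratio of 9.21), and Mmp8, a collagenase stored in neutrophil granules, at 164 against 12.9 CPM, beside 322 CPM in neutrophils. Wfdc21, Msantd3 and Kif23 also ranked here, of which Wfdc21 reached 1066 CPM in neutrophils and Kif23 31.3 CPM in T cells. In control, Mgst1 was 16.3-fold higher in the members as well, as were Bmx, Flt3, Mmp8 and Wfdc21, at ratios from 4.36 to 19.5. Kif23 went the other way there, with no UMI in members against 8.29 CPM in the macrophages. The control interval of Msantd3 (0.386 to 21.9) included 1.

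At the other end, Ccl8, a chemokine of tissue macrophages, had no UMI in DPCP members and 286 UMIs (115 CPM) in the macrophages. With the 0 set to 3 counts, its ratio was 0.00548, and its interval reached up to 0.00678. Cd163, the scavenger receptor for haptoglobin complexes, was at 2.73 against 234 CPM (0.0117, 0.00619 to 0.0202). Igf1, insulin-like growth factor 1, was at 0.421 against 47.9 CPM. The lectins Cd209f and Cd209d, the growth factor Pdgfc, the class I-like gene H2-M2 and Kitl, the ligand of Kit, completed the 8 lowest. Values of the C1q positive cells, those with Chil3 and Vcan UMIs included, were as follows for 4 of the genes described above. Ifi44 was at 82.1 and 11.3 CPM, Ly6c2 at 1100 and 85.8 CPM, Saa3 at 3.71 and 356 CPM, and Lrg1 at 7.05 and 206 CPM. Whether the size of the difference varied between members and C1q positive cells was not tested.

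Members were also compared among themselves by genes of antigen presentation. MHC class II molecules show peptides to CD4+ T cells, and monocytes can gain them in tissue. The main chains were close between conditions, with H2-Eb1 at 544 and 562 CPM (a ratio of 1.03, or 1.53 without the control cell richest in it). Ciita, their master regulator, was at 36.3 and 83.1 CPM (2.29, 1.53 to 3.58). H2-DMb2, a peptide-loading subunit, was at 20.3 and 9.04 CPM, and its ratio of 0.445 was 0.848 without 1 control cell. Per cell, the UMIs of H2-Aa, H2-Ab1, H2-Eb1 and Cd74 together had a median of 11.3 per 10000 in control and 10.6 in DPCP. A limit of 100 per 10000, set after the values were seen, was reached by 9 of 67 control members (13.4%, 6.33 to 23.97%) and 54 of 386 DPCP members (13.99%, 10.7 to 17.9%). The limit cuts a continuous range, with 11 control and 51 DPCP members between 50 and 200. T cells reached it in 24.7% of control and 4.80% of DPCP cells.

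**Figure D4:**
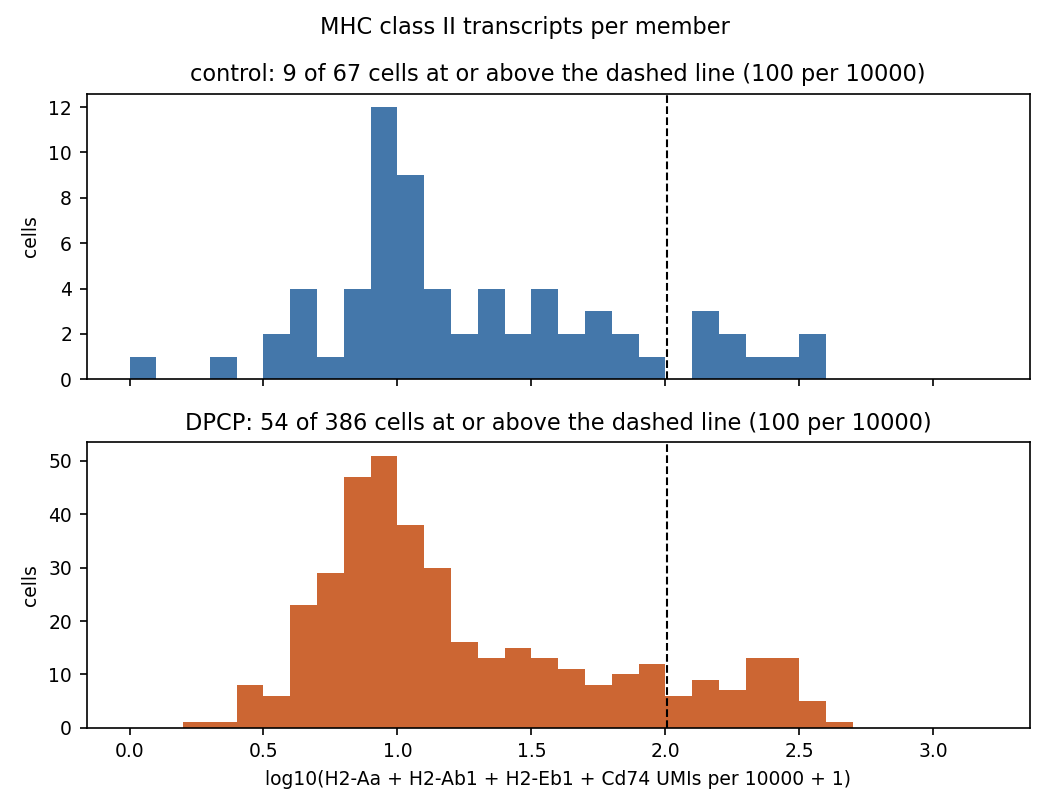
Number of members (y axis) by MHC class II UMIs per 10000 as log10(value + 1) (x axis), in control (top, 67 cells) and DPCP (bottom, 386 cells), with the limit of 100 per 10000 as a dashed line. In both conditions most cells lie near 10 per 10000 and a tail of 9 and 54 cells passes the limit.

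DPCP members above the limit had more of several macrophage genes. Mrc1, the mannose receptor, was at 790 CPM (725 to 860) in the 54 cells above it and 52.1 CPM (45.3 to 59.6) in the 332 below it. Maf, a macrophage transcription factor, was at 732 against 152 CPM, Mertk, a receptor for dying cells, at 120 against 14.3 CPM, and Apoe, the lipid carrier, at 2736 against 1207 CPM. Hp went the other way, at 283 against 607 CPM. Saa3 was at 267 against 536 CPM. Il1b, at 480 against 363 CPM, and Thbs1, at 319 against 301 CPM, were present in both sets. These are differences between cells of 1 sample, sorted on correlated genes, and are given as a description.

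In control, the 9 cells above the limit had 487 CPM of Ly6c2 (362 to 640) and 124 CPM of Irf7 (66.0 to 212), and the 58 below it 3596 CPM (3444 to 3754) and 460 CPM (407 to 518). Mrc1 was again higher above it, at 677 against 233 CPM. Maf (401 against 578 CPM), Mertk (28.6 against 30.8 CPM) and Apoe (1422 against 1555 CPM) were not higher above it in control. Among the cells below the limit, Ly6c2 had a ratio of 0.124 (0.117 to 0.132), Irf7 of 0.119 (0.0993 to 0.143), Ifi44 of 0.00984 (0.00310 to 0.0240) and Saa3 of 78.4 (30.6 to 288) between conditions. Above the limit, Ly6c2 had a ratio of 0.437 (0.316 to 0.614) and Irf7 of 0.517 (0.274 to 1.05), and Saa3 had 0 UMIs in control and 183 in DPCP, at least 9.32-fold higher. The control side of these ratios held 51 Ly6c2 and 13 Irf7 UMIs in 9 cells, 1 of which had 33085 UMIs in all. Per 10000 UMIs those cells ran from 0 to 18.9 for Ly6c2 and from 0 to 6.58 for Irf7. How far the ratios depend on single cells was not tested.

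Members also varied along Chil3, which the rule had used, so the values by Chil3 tier are a description of the chosen cells. DPCP members with 0 Chil3 UMIs after thinning to 1000 (89 cells) and those with 5 or more (63 cells) had Cd74, the class II chaperone, at 3649 and 666 CPM and Mrc1 at 298 and 28.4 CPM. Hp was at 439 and 722 CPM, Lrg1 at 241 and 491 CPM, and Saa3 at 404 and 719 CPM between these tiers. Ccr2 was at 1640 and 1618 CPM, and Csf1r was at 495 and 442 CPM. In control the tiers from 0 to 5 or more UMIs held 17, 13, 24 and 13 cells, and Cd74 had no steady order over them, at 3456, 2567, 1221 and 2202 CPM. Ly6c2 was at 3336, 3424, 3493 and 1845 CPM.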

How the data were processed

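Skin CD45+ cells of 2 tagged samples were run as 1 droplet pool. The deposited matrix holds raw UMI counts that the authors left unnormalised, as whole numbers per gene and barcode. Cell Ranger 7.0.0 made it per the file headers, and the tools named in the submitters' processing notes are Cell Ranger 6.1.1 and Seurat 4.0.1, with mm10. Barcodes were assigned to conditions by their suffix and the deposited aggregation table. The members and the 34 gene lists (310 of 313 symbols with a single match) were chosen with earlier results of these data known.

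Barcodes were kept from 200 detected genes upward and up to a mitochondrial share of 10%, and no doublet caller was run. UMIs were summed over members per condition and divided by the summed total, scaled to 1000000 UMIs (CPM). Levels carry exact Poisson intervals, ratios exact conditional binomial intervals and shares Clopper-Pearson intervals, all at 95%. They cover counting error only. A level of 0 was set to 3 counts over the summed cells. Its ratio then depends on this setting and is not the limit of a 95% interval. Genes named are the 14 highest and 14 lowest called ratios, all monocyte markers, the 2 highest and 2 lowest of each other list, and the 8 highest and 8 lowest beside C1q positive macrophages. Some genes that the rule takes are not reported here. Any other gene named was chosen after its values were seen. The rule for ratios was run on simulated Poisson counts with known fold changes. These held no variation between cells or mice, so they cannot show how the calls fare under it. Python 3.11.15, numpy 2.4.6, scipy 1.17.1 and, for TMM scaling, edgeR 4.0.16 in R 4.3.3 were used. The list of tag sequences was left out.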

Additional observations from a re-analysis of the deposited data

How the results depend on the processing

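The report rests on 1 tagged sample per condition, so it cannot show how far other mice would differ. No paired analysis was possible because each condition has 1 tagged sample and no replicate number. Free RNA, doublets and the 120 DPCP members under 80% own tag limit single levels, and a gene with under 10 control UMIs has a wide ratio.

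The alternatives on the Vcan criterion, on 10 Chil3 UMIs, on deep members (over 25000 UMIs, 2 control and 9 DPCP cells), on the T cell level and on 1 control cell were chosen after seeing the data. The control share, 1.35% of kept cells, was 0.563% with S100a8 and S100a9 under 5, 1.01% with no C1q UMI, 0.785% with at least 10 Chil3 UMIs and 4.59% without the Vcan criterion. The DPCP share, 5.09%, was in the same order 1.07%, 3.70%, 3.87% and 6.23%, and 4.53% with at least 5 Chil3 UMIs and 5.63% with at least 80% own tag. The 301 higher and 243 lower genes became 177 and 91 with S100a8 and S100a9 under 5, 170 and 95 with cells thinned to 2000 UMIs, 178 and 75 with a minimum of 200 summed UMIs, and 117 and 101 among genes 2-fold above the T cell level. Thinned to 2000 UMIs in place of 1000, 42.5% of DPCP members had a Ly6c2 UMI and 30.3% a Saa3 UMI, as deeper sampling gives by construction.

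The type I interferon median stayed between -2.19 and -0.82 in all alternatives run. Of the other list medians, that of chemokines ran from -1.67 to 0.38, that of macrophage markers from -0.40 to 0.23, MHC class II genes from -0.20 to 0.98, inflammatory cytokines from 0.08 to 1.33 and antimicrobial genes from 0.49 to 1.41. Single genes changed sign on the log2 scale. With S100a8 and S100a9 under 5, Fcrls was at 1.502, Pf4 at 0.25, Egln3 at -1.01, Retnla at 0.36 and Hspa1a at -0.16. Pf4 was also at 0.91 and 0.38 with 5 and 10 Chil3 UMIs, and Retnla at 0.025 with no C1q UMI. Egln3 was at -1.11 with cells thinned to 2000 UMIs, and Fabp5 at -0.22 without the Vcan criterion. Without the control cell richest in the gene, Pf4 was at 1.11 and Retnla at 0.00517. The cause of these changes was not tested. Of 61 named genes past 2-fold, 56 to 61 kept their direction and 46 to 61 stayed past 2-fold, depending on the alternative, and both counts were lowest with S100a8 and S100a9 under 5.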
